A study of Mus musculus with 60 samples.

Results

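The transcripts of the BMAL1 partners CLOCK and NPAS2, of the BMAL1 paralog ARNTL2 and of 1 ROR nuclear receptor were followed in mouse kidneys. The clock protein BMAL1 was or was not removed from the renal tubule of the mice. The members are Clock, Npas2, Arntl2 and Rora. They were chosen by name, as Ensembl rows matched to GENCODE mouse symbols. They make up 4 of the 55335 gene IDs in the counts and 4 of the 15546 genes tested, since all 4 passed the filter of at least 1 CPM (the count scaled to a fixed library size) in at least 1 sample.

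BMAL1, the product of Arntl, binds DNA only as a dimer with another protein of the bHLH-PAS family, either CLOCK or its paralog NPAS2. The dimer activates genes through E-box elements, and among its targets are the PER and CRY repressors and the nuclear receptors REV-ERB and ROR. REV-ERB and ROR compete for the same DNA elements, where REV-ERB represses and ROR activates, and Arntl, Clock and Npas2 are known targets of this second loop. ARNTL2 (BMAL2) is the paralog of BMAL1 and can also pair with CLOCK. RORA, the product of Rora, is the ROR receptor found in the widest range of tissues.

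RNA was sequenced from 60 male mice of a C57BL/6J background, 30 control and 30 cKOt, killed in groups of 5 per genotype at 6 zeitgeber times (ZT), where the lights come on at ZT0 and go off at ZT12. The controls carried Bmal1lox/lox alone, and the cKOt littermates carried Bmal1lox/lox/Pax8-rtTA/LC1, so that doxycycline switched on the Cre recombinase in Pax8-expressing cells, chiefly of the renal tubule. From 8 weeks of age both genotypes drank doxycycline at 2 mg/ml with sucrose at 20 mg/ml for 2 weeks, kidneys were taken 4 weeks later, and the mice lived under 12 h of light and 12 h of darkness. The controls lacked both transgenes, and cells outside the tubule of cKOt mice were not meant to lose BMAL1. Labels name the renal tubule, whereas the methods of the study describe pieces of whole frozen kidney, and the study kept 5 mice per group out of a larger number. The supplementary sample table marks 1 cKOt mouse at ZT16 for removal, and that mouse was kept here. The same table gives each mouse 1 of 6 batch numbers, which are the batches used here, without saying which step they belong to, and each batch held mice of both genotypes.

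The libraries held 17791420 to 20906706 reads assigned to genes. Markers of the proximal tubule summed to between 8427 and 13909 CPM in a mouse, and all 6 lymphocyte markers had means below 1 CPM. Endothelial, fibroblast and macrophage markers were also present, and over the day 5 of 6 markers in each of these 3 lists passed the edgeR test (adjusted p under 0.05) as lower in cKOt mice, where 50.0% of all genes passed in either direction. Of the tubule markers, 3 of 6 for the proximal tubule, 3 of 4 for the thick ascending limb, 2 of 3 for the distal convoluted tubule and 3 of 6 for the collecting duct passed as higher, and 2, 1, 0 and 2 as lower. The summed level of the thick ascending limb markers had a median of 4708 CPM over control mice and 3946 CPM over cKOt mice. The median log2 difference over these 4 markers was 0.12, so the lower sum does not describe most of the list. In whole tissue, fewer cells of a type and less RNA per cell cannot be told apart. Reads that fell outside genes made up a larger share in cKOt mice, with group means from 8.94% to 9.56% against 7.87% to 8.54% in control mice. Counts over the whole of Arntl do not check the deletion, since they include the exons that remain.

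Clock (ENSMUSG00000029238) lies on chromosome 5 from 76209868 to 76304792, on the minus strand of GRCm38. Npas2 (ENSMUSG00000026077) lies on chromosome 1 from 39193731 to 39363236, on the plus strand. Arntl2 (ENSMUSG00000040187) lies on chromosome 6 from 146796055 to 146833529, on the plus strand. Rora (ENSMUSG00000032238) lies on chromosome 9 from 68653786 to 69388246, on the plus strand. All 4 are protein-coding, and the genes that overlap Clock, Npas2 and Rora had at most 6 counts in any mouse.

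The promoter windows of the 2 members whose mean level differed between the genotypes are shown because the clock loop acts on these genes through DNA elements. Each window holds 250 bases before a RefSeq start and 50 bases from it (GRCm38.p6), read 5′ to 3′ on the strand of the gene. The capitals mark a match to AGGTCA, the core of the element that ROR and REV-ERB bind, here read on its complementary strand. The Npas2 window is chr1:39194022-39194321 on the plus strand, inside the annotated gene, which begins at 39193731. The first Clock window is chr5:76304743-76305042 on the minus strand, at the annotated 5′ end of the gene, and another is chr5:76303453-76303752, at a start inside the gene.
Npas2 promoter: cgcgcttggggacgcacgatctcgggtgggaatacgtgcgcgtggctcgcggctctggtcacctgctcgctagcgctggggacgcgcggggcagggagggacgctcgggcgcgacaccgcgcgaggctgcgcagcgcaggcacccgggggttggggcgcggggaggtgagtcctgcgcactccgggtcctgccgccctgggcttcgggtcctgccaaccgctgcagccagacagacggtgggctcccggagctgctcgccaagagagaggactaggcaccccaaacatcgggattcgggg
Clock promoter, first start: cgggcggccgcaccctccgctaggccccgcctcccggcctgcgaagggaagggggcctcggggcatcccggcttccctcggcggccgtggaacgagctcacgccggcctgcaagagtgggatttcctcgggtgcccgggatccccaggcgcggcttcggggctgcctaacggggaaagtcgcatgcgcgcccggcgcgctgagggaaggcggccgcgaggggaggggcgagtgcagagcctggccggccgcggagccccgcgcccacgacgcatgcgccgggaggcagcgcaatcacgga
Clock promoter, inner start: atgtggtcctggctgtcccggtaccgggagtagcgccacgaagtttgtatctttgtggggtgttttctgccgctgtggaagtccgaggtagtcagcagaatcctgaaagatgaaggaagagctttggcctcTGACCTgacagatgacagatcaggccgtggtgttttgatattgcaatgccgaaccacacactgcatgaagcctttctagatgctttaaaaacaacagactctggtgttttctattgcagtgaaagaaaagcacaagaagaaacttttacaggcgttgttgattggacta

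On both strands, the E-box CACGTG and its variant CACGTT, the ROR core AGGTCA and its variant GGGTCA, and the D-boxes TTATGTAA and, with another central base pair, TTACGTAA were searched in the 6 windows of the members (3 of Clock, 1 each of Npas2, Arntl2 and Rora). The search gave 1 match, the AGGTCA that starts 119 bases before the inner start of Clock. Among 32851 mouse windows of the same length, AGGTCA was in 16.3%, GGGTCA in 13.7%, CACGTG in 7.15%, CACGTT in 4.68%, TTATGTAA in 0.938% and TTACGTAA in 0.119%. A match is a description of the letters, and windows without one say nothing of elements further away.

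Averaged over the day, 2 of the 4 members differed between the genotypes, Npas2 and Clock, both higher in cKOt mice (edgeR quasi-likelihood test, adjusted p under 0.05, a level that 50.0% of all genes tested reached in 1 direction or the other). By time point, 1 of 4 passed at ZT0 (12.1% of all genes), 2 of 4 at ZT4 (12.5%), 2 of 4 at ZT8 (19.9%), 2 of 4 at ZT12 (21.0%), 3 of 4 at ZT16 (19.8%) and 1 of 4 at ZT20 (13.8%). Npas2 was in every one of these counts. The test that the difference itself varied over the day was passed by 1 member, Npas2, against 3.08% of all genes. A time effect passed for 3 members in control mice (30.6% of all genes) and for 1, Clock, in cKOt mice (26.6%).

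**Figure D1:**
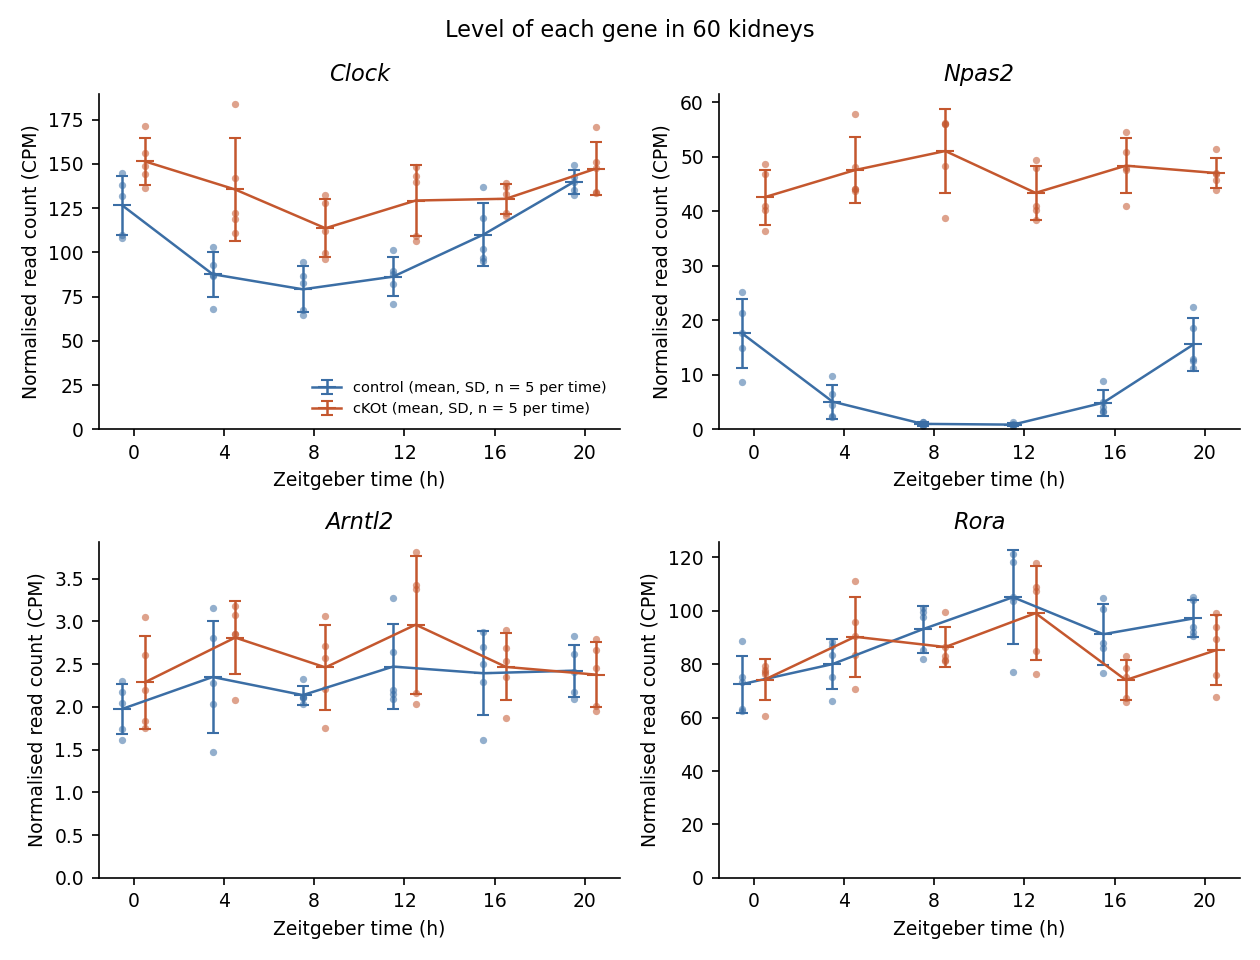
Normalised read count (CPM) of each gene against zeitgeber time (h), with 1 point per mouse and lines through the means with SD (n = 5 mice per group, control in blue and cKOt in orange). Npas2 stays between 36.3 and 57.8 CPM in cKOt mice and falls to 0.517 CPM in control mice, Clock is higher in cKOt mice around ZT4 to ZT12, and Arntl2 and Rora overlap.

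Npas2 showed the largest difference of the 4. In control mice it rose and fell 20.4-fold, from a mean of 0.863 ± 0.299 CPM at ZT12 to 17.6 ± 6.32 CPM at ZT0 (SD, n = 5). In cKOt mice the 6 group means lay between 42.6 and 51.0 CPM, above the highest control mouse at any time, which had 25.2 CPM.

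At ZT0 the 5 control mice had 8.63, 14.9, 17.7, 21.4 and 25.2 CPM of Npas2. The 5 cKOt mice of that time had 36.3, 40.2, 40.9, 46.7 and 48.6 CPM. All cKOt mice were above all control mice, as were those of 4.06% of all genes at ZT0. The difference was 1.26 ± 0.20 on the log2 scale (SE, adjusted p = 3.24e-06), or 2.42-fold between the means.

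At ZT4 the control mice had 2.33, 2.36, 4.53, 6.48 and 9.72 CPM, and the cKOt mice 43.7, 44.0, 44.0, 48.1 and 57.8 CPM. The genotypes did not overlap, which 5.62% of all genes also showed with cKOt above. The log2 difference was 3.27 ± 0.23 (adjusted p = 2.45e-16), 9.35-fold between the means.

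At ZT8 and ZT12 Npas2 was at its lowest in control mice, with 9 to 27 counts in a library. At ZT8 the control mice had 0.628, 0.734, 0.811, 1.39 and 1.43 CPM, against 38.8, 48.2, 56.0, 56.0 and 56.1 CPM in cKOt mice. At ZT12 they had 0.517, 0.731, 0.755, 1.02 and 1.29 CPM, against 38.3, 40.1, 41.0, 47.9 and 49.4 CPM. These were the times of the widest gap, with no overlap at either, a pattern shown with cKOt above by 5.02% of all genes at ZT8 and 5.06% at ZT12. The log2 difference reached 5.62 ± 0.29 at ZT8 (adjusted p = 3.11e-22) and 5.67 ± 0.30 at ZT12 (adjusted p = 7.82e-22), and the means differed 51.1-fold and 50.2-fold. By absolute log2 difference Npas2 ranked at place 3 of 15546 genes at ZT8 and at place 5 at ZT12.

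At ZT16 the control mice had 3.17, 3.28, 4.13, 4.92 and 8.92 CPM of Npas2, and the cKOt mice 40.9, 47.6, 47.9, 50.8 and 54.5 CPM. At ZT20 the control mice had 11.2, 12.5, 12.9, 18.6 and 22.5 CPM, and the cKOt mice 44.0, 45.7, 46.9, 47.0 and 51.4 CPM. Control levels had thus come back towards those of ZT0, and the genotypes again did not overlap (cKOt above in 4.41% of all genes at ZT16 and 3.03% at ZT20). The log2 difference was 3.25 ± 0.23 at ZT16 (adjusted p = 6.95e-17) and 1.63 ± 0.20 at ZT20 (adjusted p = 7.95e-09).

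Over the day, the mean log2 difference of Npas2 was 3.45 ± 0.10 (adjusted p = 1.06e-34, place 13 of 15546 genes by size). Within each of the 6 batches, after subtraction of the mean of each time point over both genotypes, it was between 2.95 and 3.98. The batches held unequal mixes of times and genotypes, so these values also depend on which times fell in a batch. The difference varied between time points (adjusted p = 1.81e-15). Npas2 changed with time in control mice (adjusted p = 2.14e-19), and no change with time passed the test in cKOt mice (adjusted p = 0.837). In the rhythm models, which fit a cosine with a period of 24 h to each genotype and weigh 5 models by the Bayesian information criterion (BIC), Npas2 was assigned to the model with a rhythm in control mice only (model 2, BIC weight 0.982, held by 6.25% of all genes). Its amplitude from peak to trough was 4.59 ± 0.21 log2 units in control mice, with the peak at ZT22.1 ± 0.18 h, and 0.089 ± 0.21 in cKOt mice (SE).

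Relative to the mean of the group, the mice of a control group also differed more from each other in Npas2 than those of a cKOt group. In CPM the SD was larger in cKOt mice at ZT4, ZT8, ZT12 and ZT16, and larger in control mice at ZT0 and ZT20. The coefficient of variation (CV, the SD as a share of the mean) was between 30.8% and 61.3% in the 6 control groups and between 5.84% and 15.0% in the 6 cKOt groups, with no test made. Counting alone would give a CV of 5.58% to 25.6% in the control groups, highest at ZT8 and ZT12, and of 3.15% to 3.51% in the cKOt groups. At ZT0, where control counts were between 149 and 468, the CV was 36.0% and counting alone would give 5.58%.

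Clock, the usual partner of BMAL1, differed less between the genotypes, with its largest differences at ZT4, ZT8 and ZT12. Control means fell from 139.7 ± 6.61 CPM at ZT20 to 79.1 ± 12.9 CPM at ZT8, a 1.77-fold range. In cKOt mice the range was 1.33-fold, from 151.4 ± 13.2 CPM at ZT0 to 113.6 ± 16.3 CPM at ZT8.

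At ZT4 the control mice had 68.1, 86.6, 87.3, 93.0 and 103.2 CPM of Clock, and the cKOt mice 110.8, 118.9, 122.1, 142.0 and 183.8 CPM. At ZT8 they had 64.3, 67.3, 82.5, 86.9 and 94.6 CPM against 96.3, 99.4, 112.0, 127.9 and 132.4 CPM. At ZT12 they had 70.6, 82.2, 87.7, 89.7 and 101.2 CPM against 106.2, 109.0, 139.9, 142.9 and 148.3 CPM. At these 3 times all cKOt mice were above all control mice, as in 5.62%, 5.02% and 5.06% of all genes. The log2 difference was 0.43 ± 0.099 at ZT4 (adjusted p = 0.00148), 0.57 ± 0.095 at ZT8 (adjusted p = 5.09e-06) and 0.53 ± 0.094 at ZT12 (adjusted p = 1.74e-05).

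Towards the night and dawn the genotypes overlapped. At ZT16 the control mice had 95.3, 96.7, 102.0, 119.4 and 136.8 CPM of Clock and the cKOt mice 120.3, 122.3, 133.0, 136.7 and 139.1 CPM. At ZT20 they had 132.3, 135.1, 139.5, 142.4 and 149.2 CPM against 133.5, 134.1, 147.5, 151.1 and 170.5 CPM, and at ZT0 108.0, 109.5, 132.0, 138.0 and 144.8 CPM against 136.5, 144.3, 148.7, 156.4 and 171.1 CPM. The closest groups were those of ZT20, the control peak. The log2 difference was 0.26 ± 0.093 at ZT16 (adjusted p = 0.0376), 0.11 ± 0.094 at ZT20 (adjusted p = 0.513) and 0.26 ± 0.093 at ZT0 (adjusted p = 0.0547). The call at ZT16 was lost without replicate 1, 2, 3 or 5, with an adjusted p of 0.0832 to 0.127.

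The mean log2 difference of Clock over the day was 0.36 ± 0.038 (adjusted p = 1.2e-11). After the same subtraction of time means, it was between 0.31 and 0.45 within each of the 6 batches. Clock changed with time in both genotypes (adjusted p = 2.24e-10 in control and 0.00251 in cKOt mice). The rhythm models assigned Clock to different rhythms in the 2 genotypes (model 5, BIC weight 0.988, held by 2.37% of all genes). The amplitude was 0.84 ± 0.077 log2 units in control and 0.39 ± 0.077 in cKOt mice (SE), and the peaks were at ZT20.8 ± 0.35 h and ZT21.2 ± 0.76 h. The amplitude in cKOt mice was lower by 0.45, with an SE of 0.11. The test that the genotype difference was equal at all 6 times, which uses 5 degrees of freedom and no curve, did not pass for Clock (adjusted p = 0.124).

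**Figure D2:**
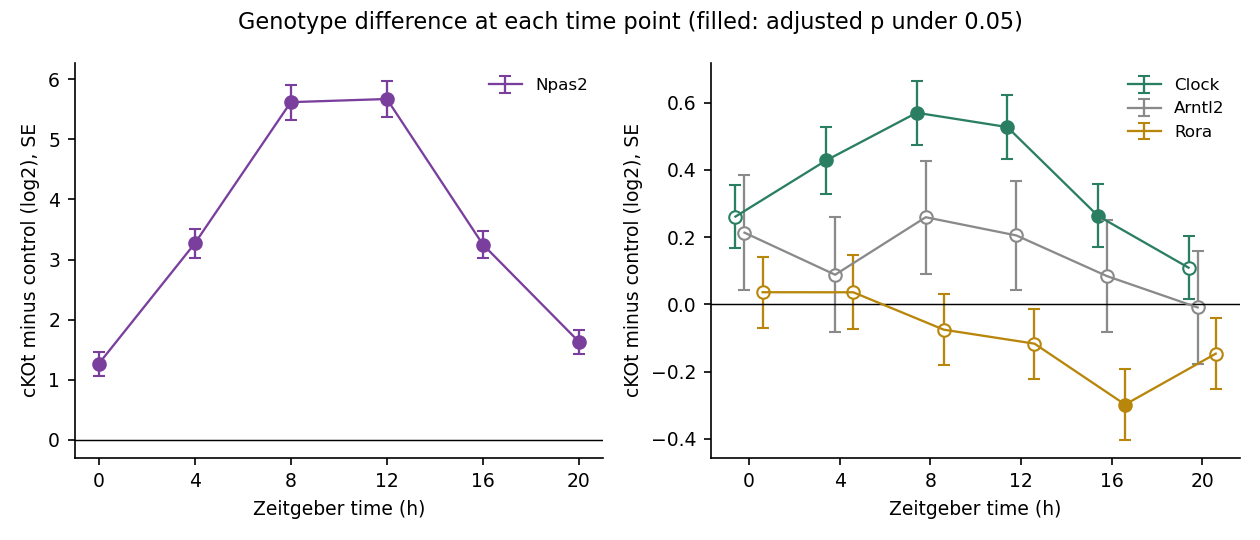
Genotype difference (cKOt minus control, log2) at each zeitgeber time (h) with its standard error, for Npas2 on the left and for Clock, Arntl2 and Rora on the right, on different vertical scales. Filled points have an adjusted p under 0.05, which holds at all 6 times for Npas2, at ZT4, ZT8, ZT12 and ZT16 for Clock, at ZT16 for Rora and at no time for Arntl2.

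The level of Clock moved with the share of reads outside genes, which also differed between the genotypes. Among the deviations of the 30 control mice from their group means, Clock and this share correlated at r = 0.715 (Spearman's rho = 0.765), and among the 30 cKOt mice at r = 0.759 (rho = 0.770). The relations had permutation p of 0.00033 and 0.00011 (adjusted over 20 relations 0.00132 and 0.00055), and for rho of 0.0001 and 0.00015 (adjusted 0.0005 and 0.0006). Without the 2 mice farthest from the median of Clock, r was 0.762 and 0.730, and within the 6 batches, over both genotypes, it was between 0.343 and 0.841. With this share as the covariate in place of the RUVs factors, a setting chosen after seeing the data, the mean log2 difference of Clock was 0.21 ± 0.042 (adjusted p = 6.34e-05), and the differences at ZT4, ZT8 and ZT12 were 0.35, 0.42 and 0.43, all with an adjusted p under 0.05. In that fit the difference was 0.099 at ZT0 (adjusted p = 0.582), -0.013 at ZT16 (adjusted p = 0.945) and -0.048 at ZT20 (adjusted p = 0.80), and the adjusted p of the variation over the day was 0.00705. The share and the genotype cannot be fully told apart, because the groups differ in both.

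**Figure D3:**
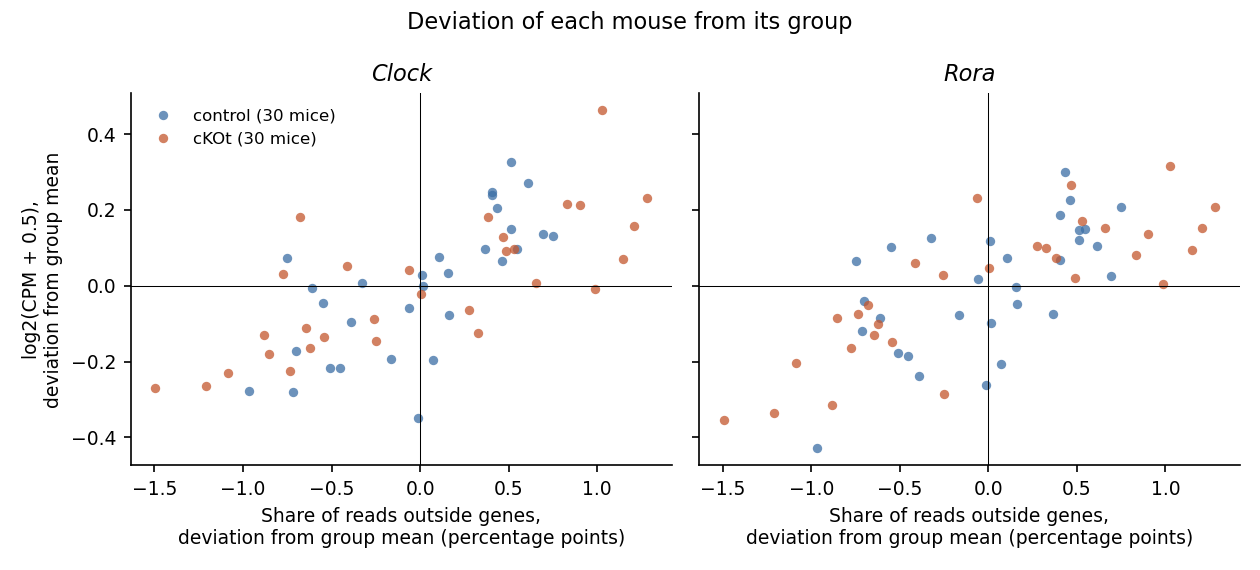
Deviation of each mouse from the mean of its group in log2(CPM + 0.5) of Clock (left) and Rora (right), against its deviation in the share of reads outside genes (percentage points), with 30 control mice in blue and 30 cKOt mice in orange. Both genes rise with the share in both genotypes, with r of 0.715 and 0.759 for Clock and 0.613 and 0.814 for Rora.

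Rora, whose product activates the genes that REV-ERB represses, overlapped between the genotypes, with a mean of 89.8 ± 15.0 CPM over the 30 control mice and of 84.9 ± 14.2 CPM over the 30 cKOt mice (SD). The mean log2 difference was -0.094 ± 0.043 and did not pass the test (adjusted p = 0.0623, but 0.0200 and 0.0386 without replicate 2 or 5). Within the 6 batches, after the same subtraction of time means, it lay between -0.25 and 0.028.

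In control mice Rora was lowest at ZT0, with 62.3, 63.2, 73.3, 75.3 and 88.6 CPM. It was highest at ZT12, with 77.0, 103.6, 105.1, 118.3 and 121.4 CPM. The control means differed 1.45-fold between these times, and the change with time passed the test (adjusted p = 0.00482, and 0.0917 without replicate 1). In cKOt mice the lowest mean was 74.1 ± 7.40 CPM at ZT16, the highest 99.1 ± 17.5 CPM at ZT12, and the change with time did not pass (adjusted p = 0.108).

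At ZT16 the control mice had 76.8, 85.9, 88.1, 100.5 and 104.8 CPM of Rora, and the cKOt mice 65.7, 67.4, 75.3, 78.7 and 83.1 CPM. The groups overlapped, and the log2 difference was -0.30 ± 0.11 (adjusted p = 0.0363). This call was lost without the marked cKOt mouse (-0.27, adjusted p = 0.0912) and without replicate numbers 1, 3 or 4. At the same time 3 of 6 endothelial markers passed the test as lower in cKOt mice, as did 2 of 6 fibroblast and mural markers and 1 of 6 macrophage markers, against 19.8% of all genes called in either direction. The median log2 differences over the 6 markers, called or not, were -0.16, -0.33 and -0.12. Collecting duct markers went the other way at ZT16, with 3 of 6 passing as higher and 0 as lower. Of the 6 proximal tubule markers, 2 passed as higher and 1 as lower at that time. Over the mice of all times, the summed level of the endothelial markers was 379 to 460 CPM in control and 342 to 446 CPM in cKOt mice, that of the fibroblast and mural markers 79.0 to 291 and 104 to 241 CPM, and that of the macrophage markers 63.6 to 115 and 69.3 to 112 CPM. The lowest mean of a single marker over all mice was 28.8, 6.58 and 2.10 CPM in these 3 lists, and their part in the result was not tested. At the other 5 times the log2 difference of Rora was between -0.15 and 0.036, and none passed the test. At ZT4 it was 0.036 (adjusted p = 0.890). At that time 2 of 6 fibroblast and mural markers and 1 of 6 macrophage markers passed as lower, and their part was not tested there either. The medians of these 2 lists at ZT4 were -0.35 and -0.26, and that of the endothelial markers, of which 0 passed, was -0.043.

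No rhythm model reached the BIC weight of 0.65 for Rora. The highest weight, 0.565, was that of a rhythm shared by the genotypes (model 4), followed by 0.277 for a rhythm in control mice only. The fitted amplitude was 0.39 ± 0.092 log2 units in control and 0.24 ± 0.092 in cKOt mice. The amplitudes differed by -0.15, with an SE of 0.13.

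Rora and Clock deviated together from mouse to mouse, although their time courses were not alike (r = -0.35 over the 12 group means). After subtraction of the group means, r was 0.796 in the 30 control mice (rho = 0.798) and 0.765 in the 30 cKOt mice (rho = 0.756). The permutation p was 2e-05 for r in both genotypes (adjusted 0.000133) and 2e-05 and 6e-05 for rho (adjusted 0.0002 and 0.0004). Without the 2 mice farthest from the median of Clock, r was 0.776 and 0.700. With batch means removed as well, r was 0.704 in control and 0.438 in cKOt mice. Within the 6 batches, with the mice of both genotypes pooled and 9 to 12 mice in each, r was between 0.313 and 0.784.

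Rora also followed the share of reads outside genes, with r = 0.613 in control (rho = 0.632) and 0.814 in cKOt mice (rho = 0.810). The permutation p for r was 0.00247 and 1e-05 (adjusted 0.00823 and 0.000133), and for rho 0.00138 and 1e-05 (adjusted 0.0046 and 0.0002), where 1e-05 is the smallest value the permutations can give. Without the 2 mice farthest from the median of Rora, r was 0.565 and 0.760, and within the 6 batches it was between 0.14 and 0.80. When group means and this share, but not batch means, were removed from both genes, the correlation of Clock with Rora was 0.641 in control and 0.389 in cKOt mice. With the share as the covariate in place of the RUVs factors, the mean log2 difference of Rora was -0.26 ± 0.042 (adjusted p = 1.03e-06) and that at ZT16 was -0.56 (adjusted p = 4.41e-06). The direction of the mean difference was the same in both fits, and its size and call were not.

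For Npas2 no relation with this share passed the test, with r of -0.015 in control and -0.059 in cKOt mice (adjusted p = 0.970 and 0.932, permutation test). The deviations of Npas2 and Clock had r = 0.274 in control mice (adjusted p = 0.452) and -0.440 in cKOt mice (adjusted p = 0.103), by the same permutation test. Neither relation passed. Over the 12 group means, by contrast, Clock and Npas2 had r = 0.873, a description over groups that share the same 2 genotypes and 6 times.

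Arntl2, the paralog of Arntl, was the lowest of the 4, with 27 to 72 counts in a library. Control mice had 1.47 to 3.27 CPM with a median of 2.18, and cKOt mice 1.75 to 3.81 CPM with a median of 2.59. The genotypes overlapped at all 6 times.

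The mean log2 difference of Arntl2 was 0.14 ± 0.068 (adjusted p = 0.0803, and 0.0437 without replicate 4). The differences at single times were between -0.0092 at ZT20 and 0.26 at ZT8, each with an SE of at least 0.16, and none passed the test. No change with time passed in control (adjusted p = 0.529) or cKOt mice (adjusted p = 0.695), nor did the variation of the difference over the day (adjusted p = 0.954). Arntl2 was assigned to the model without a rhythm in either genotype (model 1, BIC weight 0.840, held by 34.0% of all genes). Counting alone would give a CV of 13.3% to 16.7% within a group, and the measured CV was 5.18% to 28.0%.

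To compare levels between genes, CPM was divided by the merged exon length in kb, which is 13.727 for Clock, 4.791 for Npas2, 5.691 for Arntl2 and 13.071 for Rora. In control mice the means over the day were 7.64 ± 1.89 CPM per kb for Clock, 6.87 ± 1.15 for Rora, 1.56 ± 1.57 for Npas2 and 0.403 ± 0.076 for Arntl2 (SD, n = 30). Clock and Rora differed by less than their spread. In cKOt mice the order was 9.80 ± 1.52 for Clock, 9.73 ± 1.2 for Npas2, 6.49 ± 1.08 for Rora and 0.450 ± 0.095 for Arntl2. There Clock and Npas2 differed by less than their spread. Such comparisons between genes depend on the exon length used, and the SD over 30 mice includes the change over the day. In control mice at ZT8 and ZT12, Npas2 had 0.209 ± 0.080 and 0.180 ± 0.062 CPM per kb, below Arntl2 with 0.375 ± 0.019 and 0.434 ± 0.088 (SD, n = 5).

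**Figure D4:**
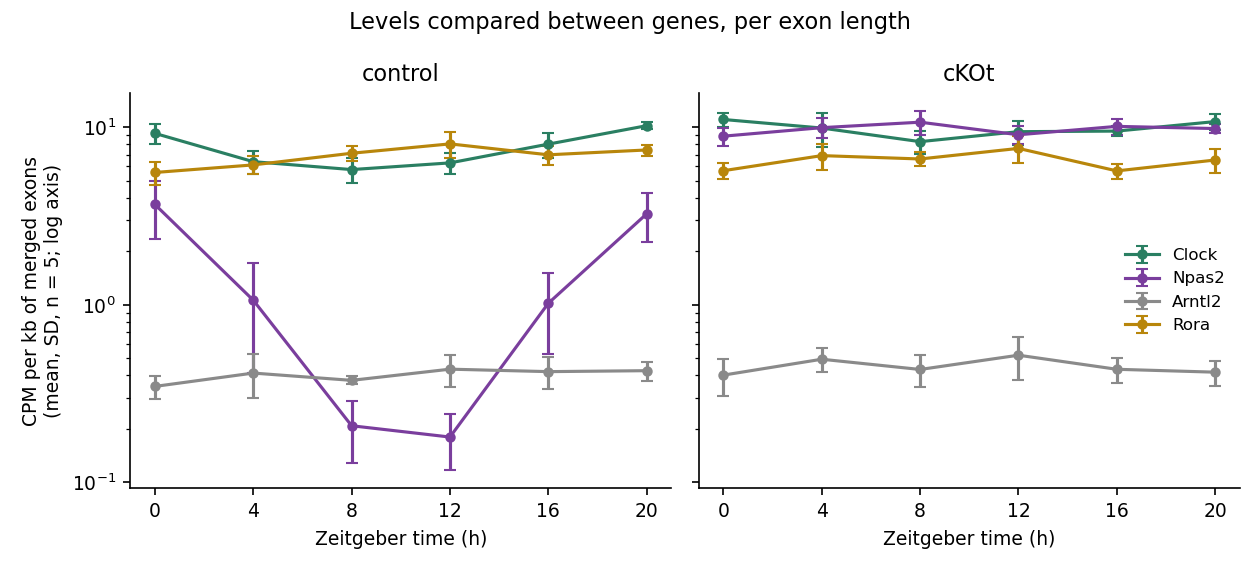
Mean CPM per kb of merged exons (log axis) of the 4 genes against zeitgeber time (h) in control (left) and cKOt mice (right), with SD (n = 5 mice). Npas2 spans 0.180 to 3.67 in control mice, crossing Arntl2, and lies between 8.88 and 10.6 in cKOt mice, beside Clock.

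The ratio of the transcripts of Npas2 and Clock, whose products can each pair with BMAL1, was taken within each library, where library size does not enter. It describes transcripts only and not dimers, and BMAL1 was removed from the tubule of cKOt mice. In control mice the ratio of Npas2 to Clock in CPM per kb ranged from 0.018 to 0.659 with a median of 0.101, and in cKOt mice from 0.665 to 1.67 with a median of 1.02. By group the control mean fell from 0.401 ± 0.161 at ZT0 to 0.029 ± 0.0098 at ZT12. The cKOt mean lay between 0.815 ± 0.152 at ZT0 and 1.33 ± 0.354 at ZT8 (SD, n = 5). At every time the cKOt mice were above all the control mice of that time. The same held for Npas2 alone, so the ratio is not a separate result from its level.

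The log2 ratio was higher in cKOt mice by 1.09 at ZT0, 2.82 at ZT4, 5.22 at ZT8, 5.13 at ZT12, 3.16 at ZT16 and 1.57 at ZT20. Each of the 6 had p = 0.00794 in an exact two-sided permutation test (adjusted p = 0.00794 over the 6), the smallest value that 5 against 5 mice can give. The value of the ratio itself depends on the exon length used. With the length of the longest protein-coding transcript, a choice added after seeing the data (9744 bases for Clock and 4236 for Npas2), the cKOt means lay between 0.654 and 1.06, and the genotype difference on the log2 scale is the same by construction.

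**Figure D5:**
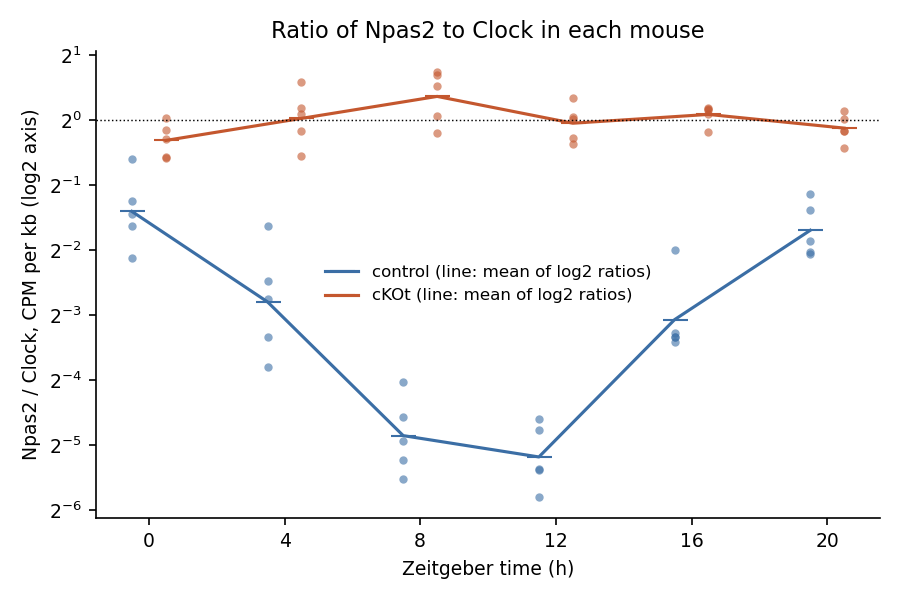
Ratio of Npas2 to Clock in CPM per kb (log2 axis) against zeitgeber time (h), with 1 point per mouse and lines through the means of the log2 ratios (n = 5 per group). The control mice in blue dip to 0.018 at ZT12, whereas the cKOt mice in orange stay around the dotted line of equal levels, between 0.665 and 1.67.

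The other genes of the clock loop give the setting. Of 17 genes of the core and second loop other than the members, 16 were tested, and 14 had a mean difference, 5 higher and 9 lower in cKOt mice, where 50.0% of all genes had one. The median log2 difference was -0.29 over the 16 and 0.012 over all genes. The difference varied over the day for 13 of them (3.08% of all genes), and a change with time passed for 16 in control (30.6%) and 11 in cKOt mice (26.6%). The 13 included the repressor Cry1 (adjusted p of the variation = 1.66e-18), with a log2 difference of 0.60 at ZT20 and 3.33 at ZT4, Arntl (4.86e-16), with -0.99 at ZT0 and 2.78 at ZT8, and the repressor Cry2 (2.81e-11), with 0.20 at ZT12 and 1.14 at ZT0.

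Of 18 genes listed as modifiers of the clock, all tested, 12 had a mean difference, 10 higher and 2 lower, where 50.0% of all genes had one. The difference varied over the day for 2 (3.08% of all genes), the ubiquitin protease Usp2 (adjusted p = 5.14e-06, from -0.77 at ZT12 to 0.12 at ZT0) and the kinase Csnk1d (adjusted p = 0.0180, from 0.0053 at ZT20 to 0.21 at ZT4). Next were the corepressor Ncor1 (adjusted p = 0.310) and Nono (adjusted p = 0.340), which did not pass. Of 15 other genes of the bHLH-PAS family and its coactivators, 12 were tested and 6 had a mean difference, 3 in each direction, the same share as the 50.0% of all genes. Their smallest adjusted p of variation over the day were those of Ncoa3 (0.164), Hif3a (0.318), Hif1a (0.338) and Epas1 (0.423), by edgeR.

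The genes whose 12 group means were most like those of each member were found among 13780 other genes with a mean of at least 1 CPM. For Npas2 they were Mapkapk2 (r = 0.993), Dtx4 (0.991), Npnt (0.988), Gm30162 (0.987) and Rtl6 (0.984). For Clock they were Noa1 (r = 0.981), Mtr (0.978), Ncbp1 (0.978), Mettl16 (0.971) and Itga6 (0.957). All 10 had their highest group mean in a cKOt group and their lowest in a control group at ZT8 or ZT12. This follows largely from picking them by likeness to Npas2 and Clock over the same groups. For Rora the closest were Nat2 (r = 0.954), Napb (0.939), Aass (0.922), Prps1 (0.919) and Anp32b (0.917). For Arntl2 they were Cep57l1 (r = 0.917), Abhd17c (0.911), Btc (0.888), Cpeb2 (0.878) and 4933406C10Rik (0.871). Each r is the highest found over many genes with 12 points that share the same mice, and is given as a description.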

How the data were processed

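RNA from 60 kidneys was analysed. The authors prepared stranded mRNA libraries and, per the labels, used bcl2fastq, cutadapt (version 1.8), STAR (version 2.5.3a) and HTSeq (version 0.9.1) with GRCm38. The strand setting of the counting is not given in the sources used here. The deposited values are raw counts of reads per Ensembl gene, and lines for reads outside genes or ambiguous reads stayed out of all tests. These made up 7.17% to 10.6% and 0.953% to 1.27% of the reads that were counted on genes, fell outside them or were ambiguous. Symbols and exon lengths came from GENCODE mouse release M21, and promoter windows from RefSeq.

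Genotype, time and replicate number were taken from the labels, and batch numbers from the study's supplementary sample table. Counts were scaled by TMM (factors 0.908 to 1.07) and fitted by the edgeR quasi-likelihood method (edgeR version 4.0.16, run under R version 4.3.3), with 12 groups and 2 RUVs factors, which are estimates of unwanted variation between mice of a group. Adjusted p-values are those of Benjamini and Hochberg, taken across the 15546 genes. Rhythm models were fitted to logCPM corrected by the RUVs factors and a gene was given a model where its BIC weight reached 0.65. The RUVs and dryR methods were coded anew. The number of permutations of a correlation was 100000, within groups. Scripts were tested on simulated data.

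The genes named were the 4 members, up to 4 genes per list with the smallest adjusted p of variation over the day, and the 5 genes most like each member. A result that this rule names is not reported here. The members and the lists were chosen with earlier results of these data known. Correlations between the deviations of mice were added after seeing the data. Alternatives were DESeq2 (version 1.42.0) size factors and test, limma-trend (limma version 3.58.1), other filters, no RUVs factors, batch or the share of reads outside genes in their place, a replicate block, and leaving out mice. Replicate numbers were not treated as pairing the mice. Between mice of different groups, the mean correlation of deviations was 0.0043 for equal and -0.0010 for unequal replicate numbers. Within a time point, 7 of 30 same-numbered pairs had a correlation over 0.1, a count without a comparison that cannot decide the question alone. The labels do not say whether mice of a group share litters.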

Additional observations from a re-analysis of the deposited data

Results flagged for a closer look

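The genotype difference of Npas2 differed between time points (adjusted p of the interaction = 1.81e-15, edgeR quasi-likelihood test). It was positive at all 6 times, from 1.26 at ZT0 to 5.67 at ZT12 on the log2 scale.

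In 2 of 48 groups of 5 mice, 1 mouse lay far from the other 4 by Dixon's test, and chance flags about 1 in 20 groups. Both were cKOt groups and both concerned Rora. At ZT0, replicate 1 had 60.5 CPM, against 76.3 to 79.5 CPM in the other mice. At ZT8, replicate 2 had 99.5 CPM, against 81.2 to 86.5 CPM in the other mice.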

How the results depend on the processing

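All 156 alternative results for Npas2 kept their direction and side of the threshold. The side of the threshold was also kept by 155 of 156 for Arntl2, 143 of 156 for Clock and 139 of 156 for Rora. Among these, a difference that passed in neither fit could change its direction. The Arntl2 difference at ZT16 was 0.084 in the main fit and -0.041 without replicate 1. With the share of reads outside genes as covariate, Clock at ZT20 went from 0.11 to -0.048 and Rora at ZT0 from 0.036 to -0.13. With a replicate block, the mean log2 difference was 0.36 for Clock, 3.45 for Npas2, 0.14 for Arntl2 and -0.094 for Rora, and no call of a member changed. The cause of the changes below was not tested. The Clock difference at ZT16 missed the threshold at 0.24 with no filter, 0.24 without RUVs factors, 0.24 in a fit of the 10 mice of that time and 0.20 with batch in place of RUVs factors, and was -0.013 with the share of reads outside genes in their place. The adjusted p of the variation of the Clock difference was 0.0359 with batch and 0.00705 with that share, and that of its time effect in cKOt mice was 0.0609 without RUVs factors. The mean Rora difference passed at -0.11 with DESeq2 size factors, -0.10 with the DESeq2 test, -0.10 with filterByExpr and -0.26 with that share. The Rora difference at ZT16 missed the threshold at -0.30 without RUVs factors, -0.30 in the fit of 10 mice and -0.27 without the marked mouse, and that at ZT20 passed at -0.32 with that share. The adjusted p of the time effect of Rora in cKOt mice was 0.0252 without RUVs factors, 0.000353 with batch and 0.00229 with that share. Rora was given model 4 at a BIC weight of at least 0.5.

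Leaving out 1 replicate number at a time, the log2 difference was 0.16 to 0.31 for Clock at ZT0, 0.22 to 0.34 for Clock at ZT16, 0.095 to 0.19 for the mean of Arntl2, -0.12 to -0.052 for the mean of Rora and -0.37 to -0.21 for Rora at ZT16. The adjusted p of the time effect of Rora in control mice was 0.000255 to 0.0917. Arntl2 was given model 1 or, without replicate 2, none (0). Rora was given none (0), model 2 without replicate 2, or model 4 without replicate 3 or 4. The genes called for variation over the day numbered 233 to 429, fewest without replicate 4, and those for time in cKOt mice 2608 to 3375, fewest without replicate 4.

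Over all genes, calls at ZT0, ZT8, ZT16 and ZT20 numbered 983, 2013, 1853 and 1407 without RUVs factors, and 1130, 1991, 1829 and 1419 with batch in their place, where ZT4 had 3091. The share of reads outside genes gave 1123 at ZT0 and 1257 at ZT4. Fits of 10 mice gave 1112 at ZT0, 1519 at ZT8, 1518 at ZT12, 1423 at ZT16 and 948 at ZT20. Variation over the day was called for 263 genes without RUVs factors and 312 with batch.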
